A study of Mus musculus with 6 samples.

Results

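Collagens and laminins are the 2 large protein families of the extracellular matrix, and their transcripts were examined in gut samples, labelled jejunum, of irradiated mice given NeuroD-EGFP or EGFP. The family was taken by gene symbol: every gene whose symbol in the array annotation reads Col, a number, a and a number, or Lam, a letter a, b or c and a number. This gave 50 genes of 19057 named on the array, read by 110 probes. Of these, 28 genes (34 probes) were detected on at least 3 of the 6 arrays and were tested, among 10777 tested genes in all, and the other 22 are accounted for below. All 6 mice were male C57BL/6J mice aged 8 weeks that had received 9 Gy total body irradiation (TBI), so no unirradiated mouse was part of the comparison. Immediately afterwards 3 mice received NeuroD-EGFP, a purified fusion of the basic helix-loop-helix factor NeuroD with enhanced green fluorescent protein, and 3 mice received EGFP alone, in both cases by intraperitoneal injection (100 µl, 0.1 mM). RNA of tissue labelled jejunum was taken at 12 h and each mouse was read on its own Illumina Mouse WG-6 array. Values are log2 intensities after background correction and quantile normalization (neqc in limma), and each difference is NeuroD-EGFP minus EGFP.

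Fibrillar collagens form the cable-like fibrils of the submucosa and the lamina propria and are made mainly by fibroblasts. Basement membranes are the thin sheets under the epithelium and around blood vessels, nerves and smooth muscle cells. They are built on a laminin network, in which each laminin joins an alpha, a beta and a gamma chain, and on a second network of collagen IV. In the gut, laminins under the crypts and villi hold the epithelium to the stroma through integrins, and both networks turn over slowly at the protein level. The array reads their transcripts and not the deposited protein.

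EGFP mouse 3 stood apart from the other 5 mice, and this touches many of the values below. Lct, the brush border lactase that marks jejunal enterocytes, had log2 intensities of 12.94, 12.95 and 13.26 in the NeuroD-EGFP mice, 12.14 and 12.95 in EGFP mice 1 and 2, and 4.56 in EGFP mouse 3, where it was not detected. Apoa4, a lipoprotein of the proximal small intestine, had between 14.46 and 14.66 in the other 5 mice and 11.17 in EGFP mouse 3. Of 13 genes of the distal gut, listed after these values had been seen, 5 were tested and all 5 were highest in EGFP mouse 3, with Saa1 between 4.66 and 7.71 in the other mice and at 12.34 there. General epithelial markers did not share this split: Vil1 lay between 13.45 and 13.83 and Cdh1 between 11.50 and 11.93 over the 6 mice. Of other enterocyte genes, Sis was at 14.49 in EGFP mouse 3 and between 14.38 and 14.66 in the other mice. Anpep was highest in EGFP mouse 3, at 14.50, while Alpi, at 10.85, and Fabp1, at 4.97, were lowest there. Over all 10777 tested genes, EGFP mouse 3 held the highest value in 26.7%. Detected probes per array ranged between 18271 and 20408, the highest number in EGFP mouse 3, and pairs of arrays correlated at 0.936 to 0.987 across probes. Some markers of this sample thus depart from its jejunum label and others do not. Whether it is jejunum is in doubt, and with it what each difference that includes it compares. The differences of the tested members with and without it are plotted below, and those of some members without it are printed. Medians without it are printed for some of the lists only.

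NeuroD binds DNA at E-boxes, written CANNTG, where N is any base. The 250 bases before the annotated start are printed for 5 members whose values are described below: Col1a2 and Col3a1 as the chains of abundant fibrillar collagens, and Col24a1, Col4a5 and Lamb1 as the 3 members with the lowest p. Capitals mark every CANNTG. The sequences are those of RefSeq for GRCm38.p6, matched by symbol, in lower case otherwise, each on the strand of its gene.
Col1a2, chr6:4505368-4505617, plus strand: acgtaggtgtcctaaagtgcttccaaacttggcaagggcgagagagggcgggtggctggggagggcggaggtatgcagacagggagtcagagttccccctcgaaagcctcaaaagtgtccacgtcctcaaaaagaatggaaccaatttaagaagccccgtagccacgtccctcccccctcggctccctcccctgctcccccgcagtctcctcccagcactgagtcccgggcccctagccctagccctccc
Col3a1, chr1:45311288-45311537, plus strand: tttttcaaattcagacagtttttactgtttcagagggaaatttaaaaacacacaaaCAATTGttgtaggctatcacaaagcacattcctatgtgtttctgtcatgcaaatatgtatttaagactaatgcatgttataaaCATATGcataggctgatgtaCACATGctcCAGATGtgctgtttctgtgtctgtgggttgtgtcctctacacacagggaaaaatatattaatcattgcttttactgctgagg
Col24a1, chr3:145292222-145292471, plus strand: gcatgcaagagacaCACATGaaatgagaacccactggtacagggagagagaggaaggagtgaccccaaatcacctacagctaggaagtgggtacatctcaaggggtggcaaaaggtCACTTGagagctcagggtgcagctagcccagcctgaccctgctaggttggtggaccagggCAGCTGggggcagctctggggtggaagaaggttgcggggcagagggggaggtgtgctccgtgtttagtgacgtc
Col4a5, chrX:141475169-141475418, plus strand: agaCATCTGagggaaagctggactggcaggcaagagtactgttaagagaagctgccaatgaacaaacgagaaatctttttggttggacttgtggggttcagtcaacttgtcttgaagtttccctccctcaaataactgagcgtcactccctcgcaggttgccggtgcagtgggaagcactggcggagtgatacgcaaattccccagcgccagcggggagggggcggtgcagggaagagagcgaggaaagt
Lamb1, chr12:31265043-31265292, plus strand: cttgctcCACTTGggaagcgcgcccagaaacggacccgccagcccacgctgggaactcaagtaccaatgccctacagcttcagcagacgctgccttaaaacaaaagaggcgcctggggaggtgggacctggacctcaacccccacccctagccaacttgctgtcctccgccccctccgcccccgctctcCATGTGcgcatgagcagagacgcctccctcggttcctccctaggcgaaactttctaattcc
Col3a1 held 4 matches, Col24a1 3, Lamb1 2, Col4a5 1 and Col1a2 none. RefSeq windows were matched by symbol for 24 of the 28 tested members, 27 windows in all, and 55.6% of these held at least 1 CANNTG, against 66.2% of all 32851 windows of the same length. The pattern reads the same on both strands and, with 2 free bases, is common, so a match is a description of the letters and not a binding site.

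No collagen or laminin gene passed the test. At an adjusted p under 0.05 in limma, with Benjamini-Hochberg adjustment over all tested probes, 0 of 28 members were called, and 0 of 10777 genes (0.0%) were called in all. At an unadjusted limma p under 0.05, 0 members were higher with NeuroD-EGFP (2.2% of all genes) and 3 were lower (Col24a1, Col4a5 and Lamb1, 10.7% of the members against 2.56% of all genes). The t-test named in the methods, without adjustment, called 2 of the 28, Col4a5 and Lamb1, and 5.72% of all genes. The count of 3 depended on single mice: without NeuroD-EGFP mouse 1 it was 0, and without NeuroD-EGFP mouse 2, EGFP mouse 1 or EGFP mouse 3 it was 1. The median difference of all members was -0.01 on the log2 scale, with 13 positive and 15 negative values, and the median of all tested genes was 0.0047. For 26 of 28 members the 95% interval of the difference lay within a 2-fold change in either direction, the exceptions being Lamb2 and Lamb3, as it did for 9421 of the 10777 genes. The smallest two-sided p that an exact permutation of 3 and 3 mice allows is 0.1. In whole tissue, fewer cells of a type and less RNA per cell cannot be told apart.

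**Figure D1:**
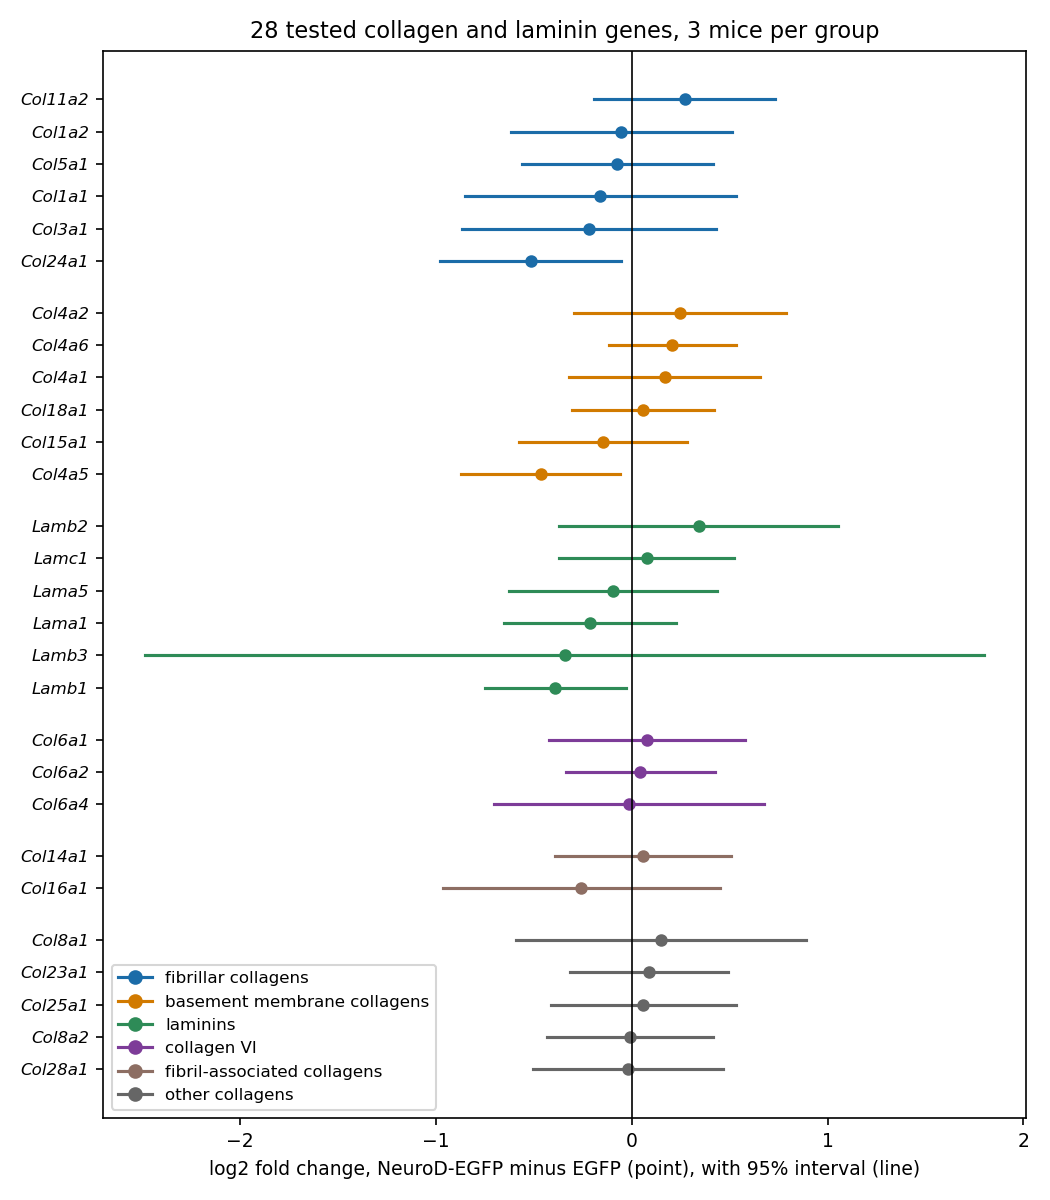
Log2 fold change (NeuroD-EGFP minus EGFP, horizontal axis) of the 28 tested collagen and laminin genes, grouped by class, as a point with its 95% interval from limma (3 mice per group). The intervals of Col24a1, Col4a5 and Lamb1 lie below 0, and that of Lamb3, between -2.48 and 1.80, is the widest of the 28.

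Among the fibrillar collagens, 6 of 11 were tested, with a median difference of -0.12, and 5 of the 6 values were negative. Col1a1, the main chain of collagen I, had log2 intensities of 8.06, 7.82 and 8.11 in the NeuroD-EGFP mice and 8.07, 7.61 and 8.80 in the EGFP mice. Col1a2, which encodes the partner chain of collagen I, had 7.65, 7.99 and 7.87 with NeuroD-EGFP and 7.76, 7.53 and 8.39 with EGFP. Col3a1, whose product forms thin fibrils in distensible tissues such as gut and vessel walls, had 8.97, 8.84 and 9.13 with NeuroD-EGFP and 9.14, 8.67 and 9.77 with EGFP. In these 3 genes the NeuroD-EGFP mice lay close together, inside the range of the EGFP mice, and the highest value of all 6 belonged to EGFP mouse 3. The differences were -0.16 for Col1a1 (standard error 0.29), -0.05 for Col1a2 (standard error 0.24) and -0.22 for Col3a1 (standard error 0.28), with adjusted p-values in limma of 0.97, 0.99 and 0.96. For Col3a1 the interval ran between -0.87 and 0.43. A second, dimmer probe of Col3a1 gave a difference of -0.12. Across the 6 mice the values of Col1a1 and Col3a1 moved together, with a Pearson r of 0.989, and those of Col1a1 and Col1a2 with an r of 0.828, over arrays that share EGFP mouse 3 as the highest.

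Col5a1, a chain of the collagen V that starts fibrils of collagen I, had 8.10, 7.99 and 8.02 in NeuroD-EGFP mice and 7.89, 7.89 and 8.55 in EGFP mice. EGFP mouse 3 again lay above all others, EGFP mice 1 and 2 lay below all 3 NeuroD-EGFP mice, and the difference was -0.07 (standard error 0.21, adjusted p = 0.99 in limma). Col24a1, a minor fibrillar chain known from bone and cornea in mouse, differed in this. It had 5.11, 5.70 and 5.67 in the NeuroD-EGFP mice, where it was detected in 2 of 3, and 6.04, 6.12 and 5.87 in the EGFP mice, where it was detected in all 3. The groups did not overlap, and EGFP mouse 3 was the lowest of its group. The difference was -0.52 (95% interval -0.98 to -0.055), a fold of 0.699, with an adjusted p of 0.92 in limma. A second probe of Col24a1 gave -0.54 (standard error 0.20), also without overlap, and was detected in 1 of 3 NeuroD-EGFP mice and 3 of 3 EGFP mice. It had 5.67, 5.07 and 5.13 with NeuroD-EGFP and 5.94, 5.69 and 5.85 with EGFP. The 2 probes thus ordered the mice within each group differently: NeuroD-EGFP mouse 1 was lowest of its group in the first and highest in the second. Both probes of this gene read close to the detection limit. With 75th percentile scaling, the quantile-normalized authors' values or array weights, Col24a1 was not lower at an unadjusted limma p under 0.05. Nor was it by the t-test of the methods. Col11a2, a collagen XI chain best known from cartilage, had the only positive difference of the class, 0.27 (standard error 0.20), at a level detected in 2 NeuroD-EGFP mice and 1 EGFP mouse.

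**Figure D2:**
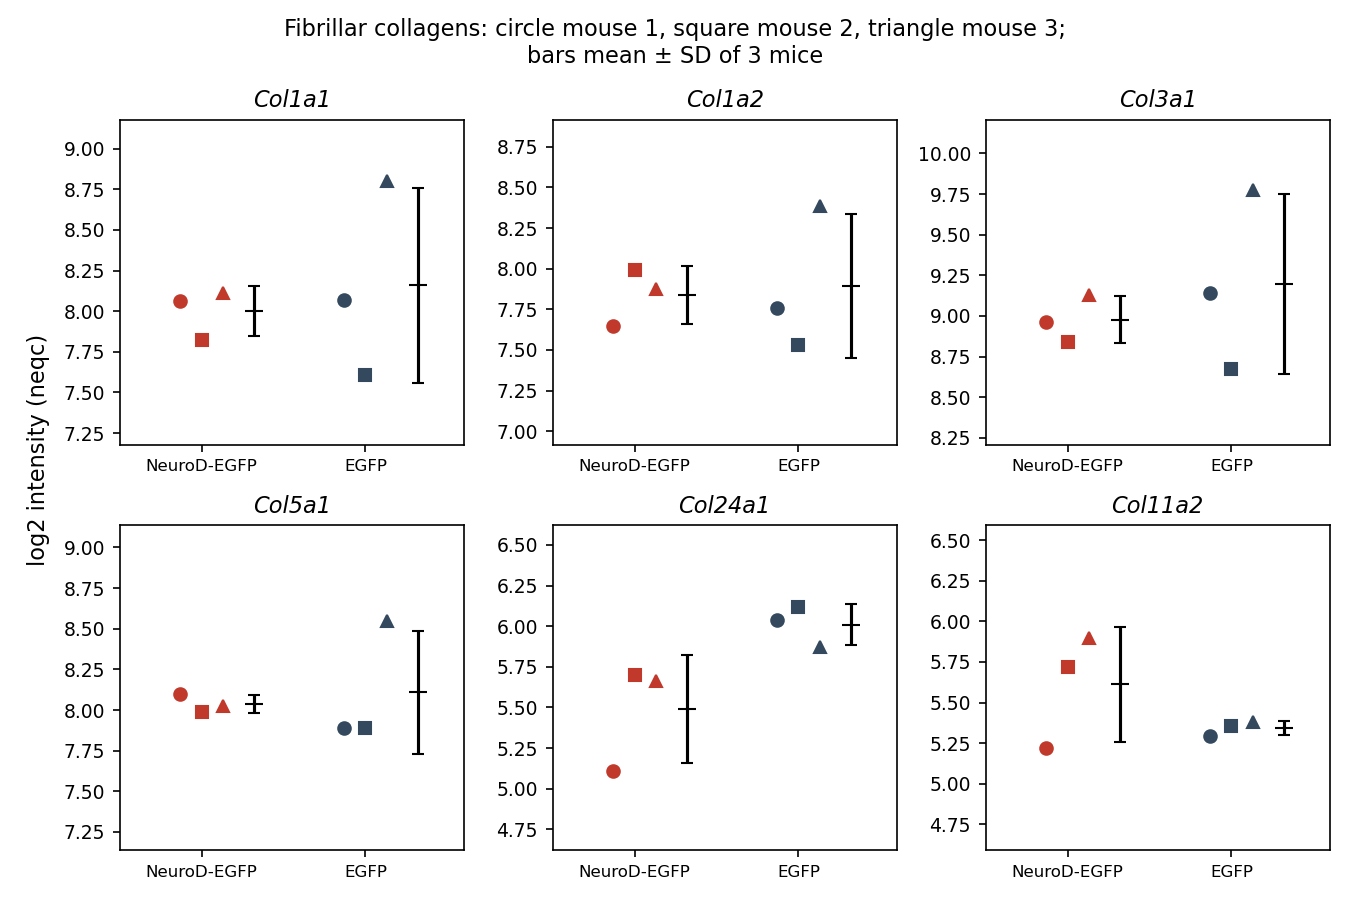
Log2 intensity of the 6 tested fibrillar collagens in each mouse (vertical axis, scale set per panel), with NeuroD-EGFP on the left, EGFP on the right, and mean ± SD of 3 mice as a bar. EGFP mouse 3 (triangle) is the highest mouse for Col1a1, Col1a2, Col3a1 and Col5a1, while for Col24a1 the EGFP mice lie above the NeuroD-EGFP mice.

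The basement membrane collagens had 6 tested genes of 8, with a median difference of 0.11 and 4 positive values. Col4a1 and Col4a2 encode the chains of the collagen IV that is present in nearly every basement membrane. Col4a1 had log2 intensities of 10.25, 10.32 and 10.00 in NeuroD-EGFP mice and 9.93, 9.73 and 10.41 in EGFP mice, a difference of 0.17 (standard error 0.21, adjusted p = 0.95 in limma). Col4a2 had 9.47, 9.61 and 9.32 in NeuroD-EGFP mice and 9.03, 8.92 and 9.70 in EGFP mice, a difference of 0.25 (standard error 0.23, adjusted p = 0.94 in limma). In both genes all 3 NeuroD-EGFP mice lay above EGFP mice 1 and 2 and below EGFP mouse 3. The 2 genes lie head to head, with annotated starts 21 bases apart. Their values over the 6 mice had an r of 0.976, over arrays that share EGFP mouse 3 as the highest. A part of the shared start region in this was not tested.

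Col4a5 encodes a collagen IV chain that in smooth muscle basement membranes joins the chain of Col4a6. It had 6.44, 6.51 and 6.63 in NeuroD-EGFP mice and 6.84, 6.84 and 7.29 in EGFP mice. Every NeuroD-EGFP mouse lay below every EGFP mouse, the difference was -0.46 (95% interval -0.87 to -0.058), a fold of 0.725, and the adjusted p was 0.92 in limma. Col4a6 was read near the detection limit, in 2 NeuroD-EGFP mice and 1 EGFP mouse. It had 5.60, 5.71 and 5.44 with NeuroD-EGFP and 5.36, 5.34 and 5.43 with EGFP, a difference of 0.21 (standard error 0.14). Col4a6 was the only member whose NeuroD-EGFP values all lay above its EGFP values (3.57% of the members against 5.44% of all genes), while 3 members lay wholly below (10.7% against 5.93%). Col4a5 and Col4a6 have annotated starts 1343 bases apart on chromosome X, and their values over the 6 mice had an r of -0.619. Col15a1 and Col18a1 encode heparan or chondroitin sulphate collagens found at basement membranes, and the end of Col18a1's protein is the source of endostatin. Col15a1 had 6.63, 6.61 and 6.45 with NeuroD-EGFP and 6.70, 7.01 and 6.42 with EGFP, and Col18a1 had 9.13, 9.43 and 9.07 with NeuroD-EGFP and 9.20, 9.03 and 9.23 with EGFP. The groups overlapped in both genes, with differences of -0.15 (standard error 0.18) and 0.06 (standard error 0.15).

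The laminins had 6 tested genes of 9 on the array, with a median difference of -0.15 and 2 positive values. Lamb1, the beta chain of the most widespread laminins, had 5.65, 5.81 and 6.05 in NeuroD-EGFP mice and 6.29, 6.16 and 6.23 in EGFP mice. The groups did not overlap, and the difference was -0.39 (95% interval -0.75 to -0.031), a fold of 0.762, with an adjusted p of 0.92 in limma. Lamb1 was detected in every mouse but read low: the lowest detected probe of NeuroD-EGFP mouse 1 was at 5.44. With an offset of 50, or with another eBayes prior, Lamb1 was not lower at an unadjusted limma p under 0.05. Lamc1, the gamma chain shared by most laminins, had 8.12, 8.23 and 8.15 with NeuroD-EGFP and 7.71, 8.27 and 8.29 with EGFP, a difference of 0.08 (standard error 0.19), and its second probe gave 0.07. Lama5, the alpha chain of the main laminin under adult gut epithelium, had 6.45, 7.23 and 6.59 with NeuroD-EGFP and 6.97, 6.68 and 6.90 with EGFP. Its groups overlapped, with a difference of -0.09 (standard error 0.23). Lama1, an alpha chain known from embryonic basement membranes, was detected in 1 NeuroD-EGFP mouse and 2 EGFP mice and had a difference of -0.21.

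Lamb2 and Lamb3 were the 2 members whose intervals reached past a 2-fold change. Lamb2, a beta chain of vascular and muscle basement membranes, had 6.75, 6.63 and 6.93 in NeuroD-EGFP mice and 5.94, 6.22 and 7.13 in EGFP mice, a difference of 0.34 (95% interval -0.37 to 1.05, adjusted p = 0.94 in limma). Lamb3, the beta chain of the laminin that joins hemidesmosomes to the basement membrane, had 8.86, 9.17 and 8.86 in NeuroD-EGFP mice and 7.74, 8.50 and 11.67 in EGFP mice. Its difference was -0.34 (95% interval -2.48 to 1.80, adjusted p = 0.98 in limma). The 3 NeuroD-EGFP mice spanned 0.31 on the log2 scale, while the EGFP mice spanned 3.93, wider than the EGFP range of 99.6% of the tested genes, whose median was 0.49. EGFP mouse 3 was 5.68-fold above the next highest mouse for Lamb3, and only 11 tested genes were led by that mouse by more.

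**Figure D3:**
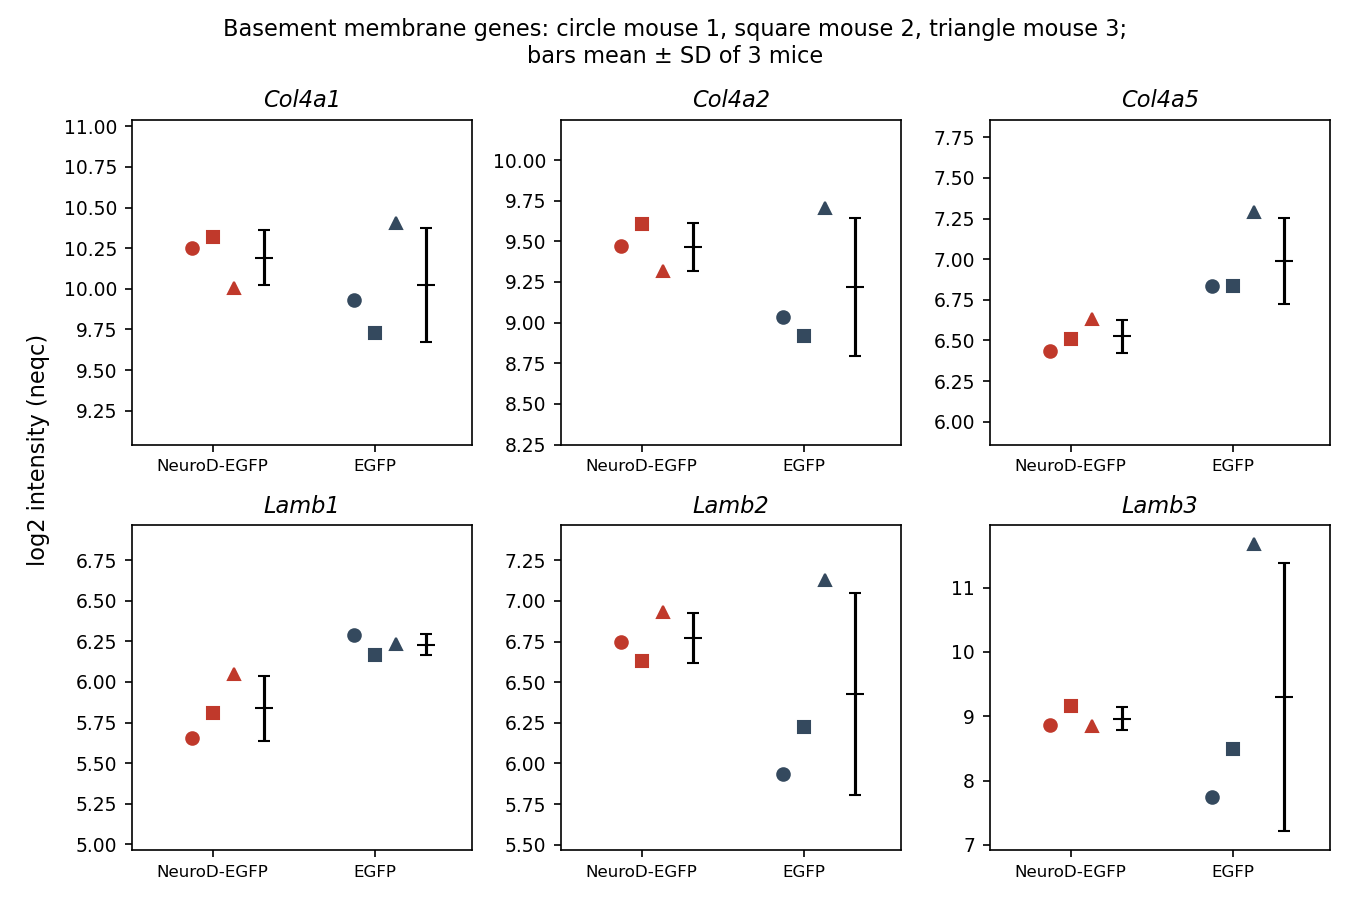
Log2 intensity of 3 collagen IV chains and 3 laminin beta chains in each mouse (vertical axis, scale set per panel), with NeuroD-EGFP on the left, EGFP on the right, and mean ± SD of 3 mice as a bar. Col4a5 and Lamb1 are lower in all 3 NeuroD-EGFP mice than in any EGFP mouse, and Lamb3 reaches 11.67 in EGFP mouse 3.

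Collagen VI forms beaded microfilaments that link cells to the interstitial matrix, and 3 of its 5 genes on the array were tested. Col6a1 had 10.60, 10.51 and 10.66 in NeuroD-EGFP mice and 10.57, 10.10 and 10.88 in EGFP mice, and Col6a2 had 8.19, 8.18 and 8.37 in NeuroD-EGFP mice and 8.34, 7.95 and 8.31 in EGFP mice. The groups overlapped, with differences of 0.08 (standard error 0.21) and 0.04 (standard error 0.16), and a second probe of Col6a1 gave 0.12. Their values had an r of 0.849 over the 6 mice. Col6a4 had a difference of -0.01. Of the fibril-associated collagens, which sit on the surface of fibrils, Col14a1 had 6.32, 6.07 and 6.21 with NeuroD-EGFP and 6.49, 5.89 and 6.05 with EGFP, a difference of 0.06 (standard error 0.19). Col16a1 had 7.54, 7.28 and 7.40 with NeuroD-EGFP and 7.19, 7.43 and 8.37 with EGFP, a difference of -0.26 (standard error 0.30), and EGFP mouse 3 was again the highest. The 5 other tested members were Col8a1 and Col8a2, the network-forming collagen VIII chains, Col23a1 and Col25a1, which are membrane-bound collagens, and Col28a1. Their differences lay between -0.02 and 0.15.

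The 22 members that were not tested were dim in both groups. None of the probes of Col2a1, Col4a3, Col4a4, Col5a3, Col6a6, Col9a1, Col9a2, Col9a3, Col10a1, Col13a1, Col26a1, Col27a1 and Lamc3, 13 genes, was detected in any mouse. Several of these are collagens of cartilage (Col2a1, Col10a1 and the collagen IX chains) or of the kidney filter (Col4a3 and Col4a4). In 5 genes the best probe was detected on 1 array: Col5a2 and Col7a1, the anchoring fibril collagen, in a NeuroD-EGFP mouse, and Lama4, Col6a5 and Col22a1 in an EGFP mouse. In 4 genes it was detected on 2 arrays: Col11a1, Col17a1, the hemidesmosome collagen, and Lama2 in 1 mouse of each group, and Col19a1 in 2 EGFP mice and 0 NeuroD-EGFP mice. Not detected means not above the array's negative control beads, and it is no statement that a transcript was absent. Lama3, Col6a3, Col12a1, Col20a1 and Col21a1 were not analysed here.

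EGFP mouse 3 held the highest value of all 6 mice in 14 of the 28 members, beside the 26.7% given above for all genes. This was so for 4 of 6 fibrillar collagens, 3 of 6 basement membrane collagens and 4 of 6 laminins. As a mean over its genes, each gene relative to its own mean over the 6 mice, the fibrillar class lay at -0.20, -0.04 and 0.06 in NeuroD-EGFP mice and -0.02, -0.19 and 0.40 in EGFP mice. The basement membrane collagens lay at 0.00, 0.11 and -0.10 in NeuroD-EGFP mice and -0.07, -0.11 and 0.16 in EGFP mice. The laminins lay at -0.17, 0.06 and -0.04 in NeuroD-EGFP mice and -0.38, -0.12 and 0.65 in EGFP mice. Without Lamb3 the laminin level of EGFP mouse 3 was 0.28. In these 3 classes the highest mouse was EGFP mouse 3. This did not hold for every class: collagen VI lay at -0.01, -0.09 and 0.16 in NeuroD-EGFP mice and 0.10, -0.08 and -0.07 in EGFP mice. The other collagens lay at 0.11, 0.02 and -0.05 in NeuroD-EGFP mice and -0.16, -0.03 and 0.11 in EGFP mice. The fibrillar level less the basement membrane collagen level was -0.21, -0.16 and 0.16 in NeuroD-EGFP mice and 0.05, -0.09 and 0.24 in EGFP mice, so that the 2 groups overlapped on the contrast between the classes.

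Marker lists of other cells moved with EGFP mouse 3 too. Of 14 smooth muscle markers 12 were tested, none was called, all 12 differences were positive with a median of 0.15, and 11 were highest in EGFP mouse 3. Their mean level was 0.02, -0.01 and 0.22 in NeuroD-EGFP mice and -0.45, -0.64 and 0.86 in EGFP mice. Actg2, the smooth muscle actin of the gut wall, had 11.42, 11.35 and 11.58 with NeuroD-EGFP and 10.55, 10.68 and 12.41 with EGFP, a difference of 0.24 with all mice and of 0.84 without EGFP mouse 3. Of 14 fibroblast markers 8 were tested, with a mean level of -0.17, -0.11 and -0.03 in NeuroD-EGFP mice and 0.17, -0.17 and 0.31 in EGFP mice. In 7 of the 8 the difference was negative, with a median of -0.24, and none was called: Thy1 had a difference of -0.35 and Pdgfra, the receptor that marks gut stromal cells, one of -0.24. Jejunum epithelium markers (13 of 14 tested) ran between -0.02 and 0.27 in the other 5 mice and were at -0.84 in EGFP mouse 3. Lct, Apoa4 and Fabp1, each lowest in that mouse, were then left out, a choice made after these values were seen that by itself raises its level. The other 10 of these markers were at 0.09 in EGFP mouse 3 and between -0.16 and 0.10 in the other mice. Among these 10, Alpi was still lowest in EGFP mouse 3, at 10.85, and Muc2 was highest there, at 14.51. Of all 13, 4 were highest in EGFP mouse 3. Endothelial markers (14 of 14 tested) lay at 0.14, 0.03 and 0.01 in NeuroD-EGFP mice and -0.05, 0.04 and -0.17 in EGFP mice, the lowest in EGFP mouse 3. Mesothelium and fat markers (7 of 12 tested) had 7 positive differences and a median of 0.47, with Upk3b, a mesothelial marker, at 1.26 (standard error 0.33, adjusted p = 0.91 in limma). Of 12 immune markers 7 were tested, with a median of -0.01, and of 10 pancreas markers 2 were tested, Amy2a5 at -1.29 (standard error 0.68), or -0.43 without EGFP mouse 2, whose value of 8.68 was the highest, and Cela1 at 0.05, so that most defining pancreas genes were not above background on enough arrays. The part that these cells had in the collagen and laminin values was not tested.

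**Figure D4:**
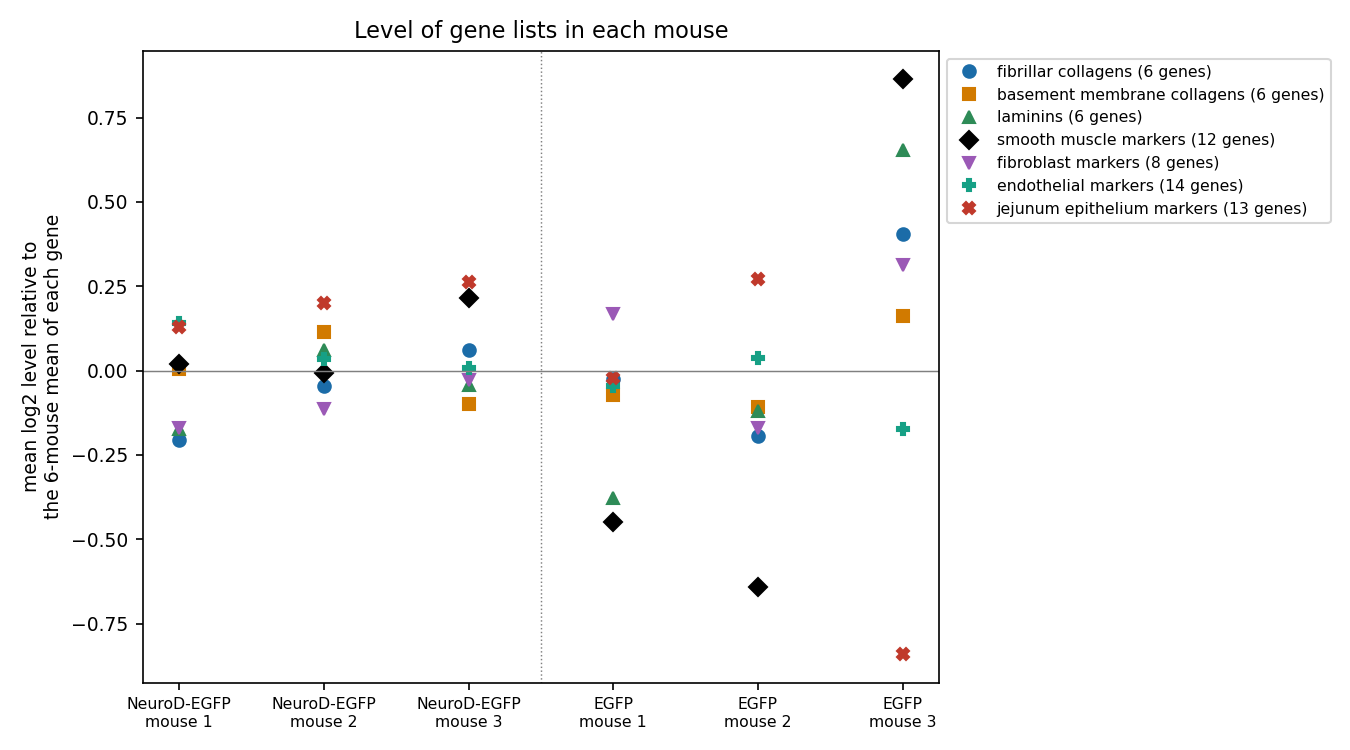
Mean log2 level of each gene list relative to the 6-mouse mean of its genes (vertical axis) in each mouse (horizontal axis), NeuroD-EGFP mice left of the dotted line and EGFP mice right of it. EGFP mouse 3 has the highest smooth muscle (0.86), laminin (0.65) and fibrillar collagen (0.40) levels and the lowest jejunum epithelium level (-0.84). The last is 0.09 there without Lct, Apoa4 and Fabp1, genes lowest in that mouse that were left out after the values were seen.

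Without EGFP mouse 3, with 3 mice against 2, 9 of the 28 members turned sign. Col1a1 then had a difference of 0.16, Col1a2 of 0.19, Col3a1 of 0.07 and Col5a1 of 0.15, and the fibrillar median became 0.15. The basement membrane collagen median became 0.16 and the laminin median 0.06, or -0.07 without Lamb3. Lamb3 had a difference of 0.84, Lamb2 of 0.69, Col8a1 of 0.53 and Col4a2 of 0.49, and these 4 members (14.3%) were higher at an unadjusted limma p under 0.05, as were 7.26% of all genes. Col24a1, at -0.58, was the only member lower at that level (3.57% against 6.71% of all genes), while Col4a5 at -0.31 and Lamb1 at -0.39 kept their sign and did not pass it. At an adjusted p under 0.05, 0 members and 16 of all genes (0.148%) were called. The lowest adjusted p of any member in limma under any setting tried was 0.19, for Lamb2 in this comparison. Marker lists moved as well: 10 of the 12 smooth muscle markers were then higher at an unadjusted limma p under 0.05, with a median of 0.67, while the fibroblast median was -0.09, the endothelial median 0.07, the mesothelium and fat median 0.82, the immune median 0.15 and the jejunum epithelium median 0.12. The part of smooth muscle in the values of these members was not tested.

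**Figure D5:**
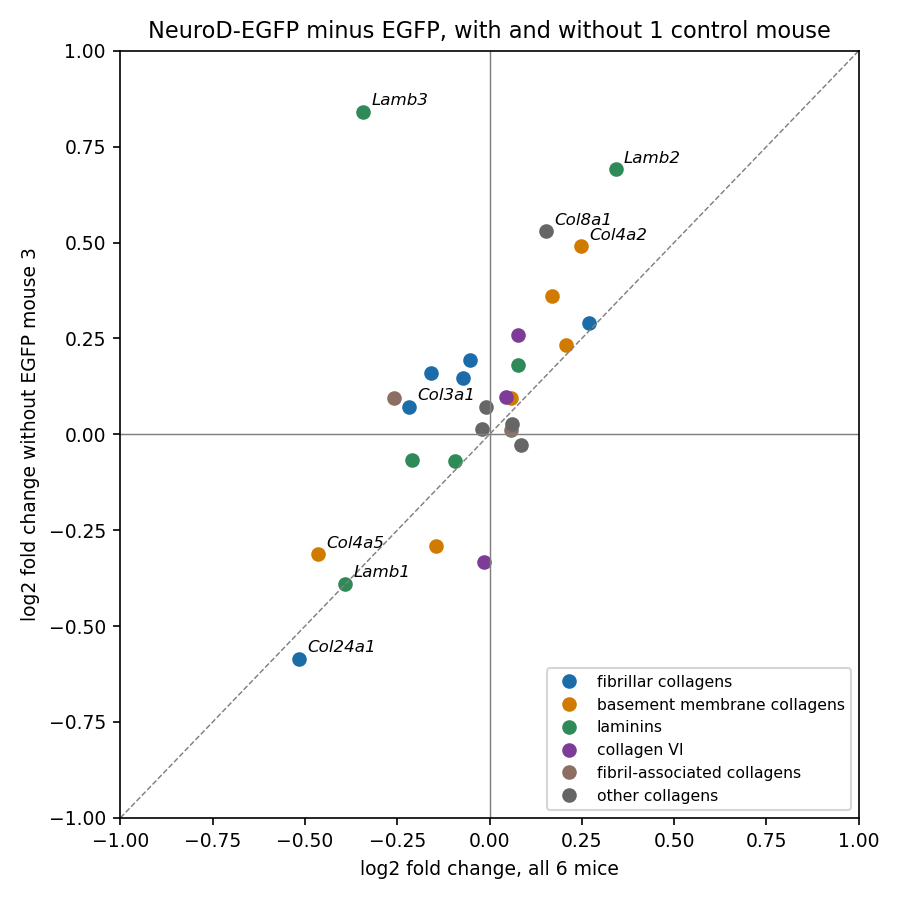
Log2 fold change (NeuroD-EGFP minus EGFP) of the 28 tested members with all 6 mice (horizontal axis) and without EGFP mouse 3 (vertical axis), coloured by class; the dashed line marks equal values. Lamb3 moves across 0, with -0.34 with all mice and 0.84 without that mouse, while Col24a1 and Lamb1 lie near the line.

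The genes that build, bind and read these matrices were examined as lists, and with all 6 mice 0 of the list genes passed an adjusted p of 0.05, or an unadjusted p of 0.05, in limma. Of 35 genes of collagen folding, secretion and crosslinking 23 were tested, 17 with a positive difference, and the median was 0.11. The genes of lowest p were P3h4, an endoplasmic reticulum partner of collagen modifying enzymes, at 0.58 (standard error 0.28), Plod1, a collagen lysyl hydroxylase, at 0.50 (standard error 0.26), Mia3, which loads procollagen into transport carriers, at 0.29, and Pcolce2, an enhancer of procollagen cleavage, at 0.35. Without EGFP mouse 3, P3h4 was at 0.81, Plod1 at 0.73, Mia3 at 0.38 and Pcolce2 at 0.59. Of 19 fibril-binding proteins 11 were tested and 9 were highest in EGFP mouse 3. Fbln1, a fibulin of elastic fibres and basement membranes, was lowest in EGFP mouse 3, with 11.32, 11.30 and 11.47 in NeuroD-EGFP mice and 10.43, 11.61 and 9.19 in EGFP mice, a difference of 0.95 (standard error 0.54), or 0.34 without EGFP mouse 3. Fbln2, another fibulin, had a difference of -0.32 and Thbs2, a matricellular thrombospondin, one of -0.41, or -0.13 without EGFP mouse 3. Of the proteins that tie laminin to collagen IV and share its sheet, 8 of 17 were tested, 4 in each direction. Nid1, a nidogen, had a difference of -0.26, Nid2 of 0.23, and Hspg2, which encodes perlecan, of 0.23. Without EGFP mouse 3 these were -0.09, 0.12 and 0.39.

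Of 21 receptors for collagen and laminin 17 were tested, with 11 positive differences and a median of 0.10. Itga6, the alpha chain of the laminin-binding integrin of hemidesmosomes, had 9.57, 9.50 and 9.52 in NeuroD-EGFP mice and 9.73, 10.13 and 9.72 in EGFP mice. Its groups did not overlap, with a difference of -0.33 (standard error 0.16, adjusted p = 0.92 in limma). Cd47, an integrin partner and thrombospondin receptor, also had groups that did not overlap, with a difference of -0.22 (standard error 0.14). Of the 17 receptors 2 thus lay wholly lower with NeuroD-EGFP, beside 5.93% of all genes. Cd44, a receptor of hyaluronan that also binds collagen, had a difference of -0.39. Dag1, which encodes the laminin-binding dystroglycan, had one of 0.36, and both genes had overlapping groups. Without EGFP mouse 3 the differences were -0.40 for Itga6, -0.16 for Cd47, -0.20 for Cd44 and 0.19 for Dag1. Without that mouse the medians were 0.24 for assembly, 0.42 for fibril-binding proteins, 0.04 for the basement membrane partners and 0.18 for the receptors. At an unadjusted limma p under 0.05, 6 assembly genes, 3 fibril-binding proteins and 3 receptors were then higher and 1 receptor was lower. Of the basement membrane partners 0 were called. Over all genes 7.26% were higher and 6.71% lower at that p. An adjusted p of 0.05 in limma was passed by 0 genes of these 4 lists. Timp1, an inhibitor of the metalloproteases that cut collagens, had 7.60, 7.53 and 7.76 in NeuroD-EGFP mice and 6.65, 5.96 and 6.60 in EGFP mice, a difference of 1.23 (standard error 0.21) with an adjusted p of 0.76 in limma. Neurod1 itself, the endogenous gene, had a difference of -0.15 (standard error 0.23).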

How the data were processed

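RNA of 6 gut samples, all given as jejunum in the submitters' labels, was labelled with Cy3 and read on Illumina Mouse WG-6 arrays. The authors deposited intensities from which background had already been subtracted, so that 24.4% to 26.1% of an array's signals are 0 or negative. Beside each signal they deposited a detection p-value. The authors' log2 values are the same signals on a log2 scale (largest gap 1.23e-06), set to 4 for signals that are not above 0. No scaling between arrays was seen in either table. The software of the background subtraction is not given in the sources used here.

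Groups and mouse numbers came from the submitters' labels, and dose, time, age and protein amounts from the methods. Intensities were processed with neqc (normexp correction by detection p-value, an offset of 16, quantile normalization) in limma 3.58.1 under R 4.3.3. A probe entered the tests if at least 3 of 6 arrays had it at a detection p-value under 0.05, which 19099 of 45281 did. Of all probes, 34885 had 1 gene symbol in the platform annotation, 18 had several and 10378 were not listed there. Each gene is given by its tested probe of highest mean. Groups were compared with lmFit and eBayes, two-sided, with Benjamini-Hochberg adjustment over all tested probes, and the script was tested on simulated data. Levels of different probes were not compared. The number of arrays limits the precision. A value by mouse was given for a fixed set of main members and for those with an unadjusted p under 0.05, or with groups that do not overlap and a difference of at least 0.5, and of each other list the genes of lowest p were named. The members, classes and lists were chosen with earlier results of these data known. Alternatives covered background correction, scaling, offset (50), detection filter, replicate block, array weights, the eBayes prior, the t-test of the methods, averaging the probes of a gene, and each mouse left out in turn.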

Additional observations from a re-analysis of the deposited data

How the results depend on the processing

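Under every alternative run, 0 members passed an adjusted p of 0.05, and with a mouse left out, members lower at an unadjusted p numbered between 0 and 3, members higher between 0 and 4, the fibrillar median ran between -0.33 and 0.15, the basement membrane collagen median between 0.01 and 0.19, the laminin median between -0.30 and 0.06 and the median of all members between -0.08 and 0.09. The extremes 4, 0.15, 0.06 and 0.09 are those without EGFP mouse 3. In 19 of 28 members the sign turned when some mouse was left out. With array weights, 1 member (Lamb2) was higher at an unadjusted p, EGFP mouse 3 had the lowest weight, 0.315, and the medians of the laminins (0.09) and of all members (0.036) were positive. In the authors' log2 values without scaling, the median of all tested genes was -0.27, the fibrillar median -0.38, the basement membrane collagen median -0.14, the laminin median -0.49 and the median of all members -0.28, and 4 members were lower at an unadjusted p (Lama1 added). Less the median of all genes, an adjustment chosen after seeing the data, these medians were -0.11, 0.13, -0.22 and -0.01. Shares of all genes at an unadjusted p were counted only for limma with all mice, limma without EGFP mouse 3 and the t-test. Member counts under the other settings have no such share beside them and are no result about the members.

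The replicate block, the other eBayes prior and the t-test leave every difference unchanged, so their values could not turn sign. The other detection filters left a difference unchanged unless another probe was read. Averaging probes left it unchanged where a member had a single tested probe. With all of these included, 18 of 300 single gene values turned sign outside leaving out a mouse. Many of the 300 could not turn, so this count is no measure of stability. In the authors' values without scaling, those that turned were Col14a1 (-0.22), Col18a1 (-0.20), Col23a1 (-0.19), Col25a1 (-0.24), Col4a1 (-0.087), Col4a2 (-0.015), Col6a1 (-0.19), Col6a2 (-0.22) and Lamc1 (-0.19). With array weights they were Col14a1 (-0.062), Col1a2 (0.090), Col28a1 (0.069), Col5a1 (0.034) and Lamb3 (0.41). With 75th percentile scaling Col28a1 was 0.014 and Col6a4 0.039, in the quantile-normalized authors' values Col6a4 was 0.091, and with no detection filter Col8a1 was -0.073, read by another probe. The cause was not tested, apart from the change of probe.

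The lowest and highest differences of the 19 members that turned sign with some mouse left out were: Col14a1 -0.070 to 0.23, Col15a1 -0.29 to 0.0029, Col16a1 -0.50 to 0.095, Col18a1 -0.051 to 0.13, Col1a1 -0.44 to 0.16, Col1a2 -0.23 to 0.19, Col23a1 -0.027 to 0.21, Col25a1 -0.072 to 0.21, Col28a1 -0.17 to 0.14, Col3a1 -0.48 to 0.072, Col5a1 -0.18 to 0.15, Col6a1 -0.13 to 0.26, Col6a2 -0.081 to 0.12, Col6a4 -0.33 to 0.23, Col8a1 -0.065 to 0.53, Col8a2 -0.16 to 0.070, Lama5 -0.33 to 0.059, Lamb3 -1.12 to 0.84 and Lamc1 -0.11 to 0.18.

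Deviations of same-numbered mice correlated at 0.30, -0.09 and 0.16 across probes, and those of different-numbered mice at -0.27 to 0.10. These values do not settle whether the mouse numbers pair the mice. With the number as a replicate block, 2 members (Col24a1 and Col4a5) were lower at an unadjusted p and 0 were higher, and the share of all genes was not counted. Each number holds a mouse of each group, so the block leaves every difference unchanged and the medians could not move. Of the tested members 8 were not detected on every array (Col11a2, Col24a1, Col25a1, Col28a1, Col4a6, Col6a4, Col8a1 and Lama1), so their differences were read near background. Leaving out EGFP mouse 3 for the other lists, and reducing the jejunum epithelium list, were chosen after seeing the data.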
